A study of Caenorhabditis elegans with 6 samples.

Results

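The genes described here code for the translation initiation and elongation factors of the nematode *Caenorhabditis elegans*. They were taken as every gene of the counts table whose WormBase symbol starts with eif, eef, ife, iff or ifg, followed by a hyphen and a subunit or paralog name. This gave 39 genes of 46748 features, 25 with the prefix eif, 6 with eef and 8 with ife, ifg or iff. All 39 passed the filter on low counts, as did 14265 genes in all. RNA came from whole hermaphrodites of the wild-type strain N2 aged 5 days, with 3 libraries labelled, by perturbation, Y6B3B.9, a gene, and 3 labelled L4440. L4440 is the name of a bacterial plasmid that serves, without an insert, as the usual control when worms are fed double-stranded RNA. The labels give no other treatment and no direction for the perturbation, so "higher", "lower", "rose" and "fell" are stated between labels, for the libraries labelled Y6B3B.9 relative to those labelled L4440. Nothing in the labels says that libraries of a group came from separate cultures, and p-values then measure only the spread between these libraries.

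Initiation factors bring the small ribosomal subunit and the initiator tRNA to the start codon of an mRNA. eIF4E binds the cap, eIF4G joins it to the ribosome through eIF3, and eIF2 carries the initiator tRNA and is recharged by eIF2B. Elongation then runs on eEF1A, which delivers aminoacyl-tRNAs, its exchange complex eEF1B, and eEF2, which moves the ribosome along. In *C. elegans* several of these proteins are coded by paralogs used in different tissues. For eIF5A, iff-1 is known for its role in the germline and iff-2 for one in the soma, while of the eIF4E genes ife-1, ife-3 and ife-5 are known from the germline and ife-2 and ife-4 from somatic tissue.

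Each library held between 23103541 and 32012257 reads counted in genes. Y6B3B.9 itself was higher under its own label, at 31.7, 37.6 and 38.1 CPM (reads scaled to library size and composition by TMM) in the libraries labelled Y6B3B.9 against 23.1, 22.4 and 22.9 CPM in those labelled L4440 (log2 change 0.65, SE 0.074, edgeR adjusted p = 1.26e-06; exact two-sided permutation p = 0.1, the smallest that 3 against 3 libraries allow). Most of the transcriptome differed between the labels: 84.1% of all tested genes passed an adjusted p of 0.05 in edgeR's quasi-likelihood test, with 46.4% of all tested genes higher and 37.7% lower. Over all tested genes the log2 change had a median of 0.22. Scaling by DESeq2's size factors shifted it by -0.15, and scaling by library totals by 0.29. Removing the trend of log2 change with gene length shifted it by -0.30.

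Most translation factor genes were lower in the libraries labelled Y6B3B.9. Of the 39 genes, 32 fell, 3 rose and 4 were not called (edgeR, Benjamini-Hochberg adjustment over all tested genes), where 37.7% of all tested genes fell and 46.4% rose. The split was 36 lower and 3 higher under DESeq2's size factors, where 5953 of all 14265 tested genes were lower and 5884 higher. Under library totals it was 23 lower and 7 higher, where 3973 of all tested genes were lower and 8204 higher. With the trend of log2 change with gene length removed, it was 37 lower and 2 higher, beside 6445 and 5048 of all tested genes. Of the 39, 10 were called at 2-fold lower or beyond, beside 10.2% of all tested genes, and no member rose by that much, beside 23.6%. The 3 libraries of each label did not overlap for 32 genes that were lower and 3 that were higher, beside 38.3% and 47.1% of all tested genes. The median log2 change of the 39 genes was -0.55, and 36 of them lay below the median of all tested genes. The distribution over all genes had a peak on each side of 0, and most translation factors lay on the lower side.

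**Figure D1:**
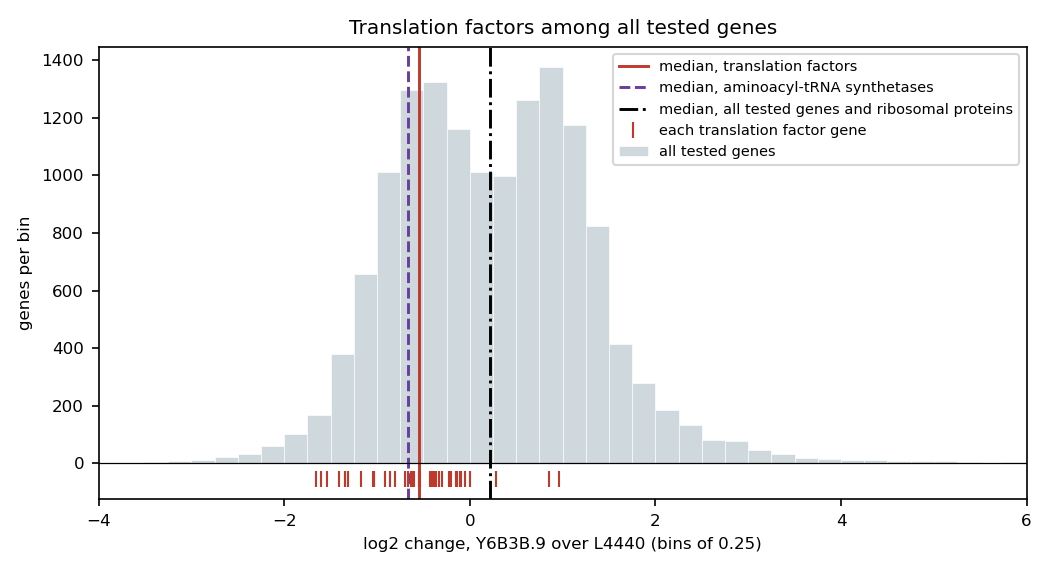
Number of tested genes per bin of 0.25 in log2 change (grey bars, Y6B3B.9 over L4440), with each translation factor gene as a tick below the axis and medians as vertical lines. The median is -0.55 for translation factors, -0.66 for aminoacyl-tRNA synthetases and 0.22 for both ribosomal proteins and all tested genes; 1 gene below -4 and 18 above 6 lie outside the axis.

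Together the 39 genes took 1.91%, 1.99% and 1.95% of counted reads in the libraries labelled Y6B3B.9, against 2.59%, 2.70% and 2.61% in those labelled L4440. In CPM their sum was 17663 ± 456 against 29126 ± 884 (SD, n = 3 each), a ratio of 0.606. The 6 elongation factor genes carried most of it, with a summed 12974 ± 476 CPM under the label Y6B3B.9 and 21673 ± 809 CPM under the label L4440. The other 33 genes summed to 4690 ± 23.9 CPM and 7453 ± 108 CPM. In whole worms a smaller number of cells of a type and less RNA per cell cannot be told apart. The oocyte and germline markers moved in the same direction: all 30 were lower, beside 37.7% of all tested genes. Their summed level ran from 12016 to 12314 CPM under the label Y6B3B.9 and from 25857 to 26786 CPM under the label L4440. Among its first markers, rme-2, the oocyte yolk receptor, averaged 647 CPM against 1733 CPM. None of these 30 markers was at 0, and their part in the lower levels of translation factors was not tested.

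**Figure D2:**
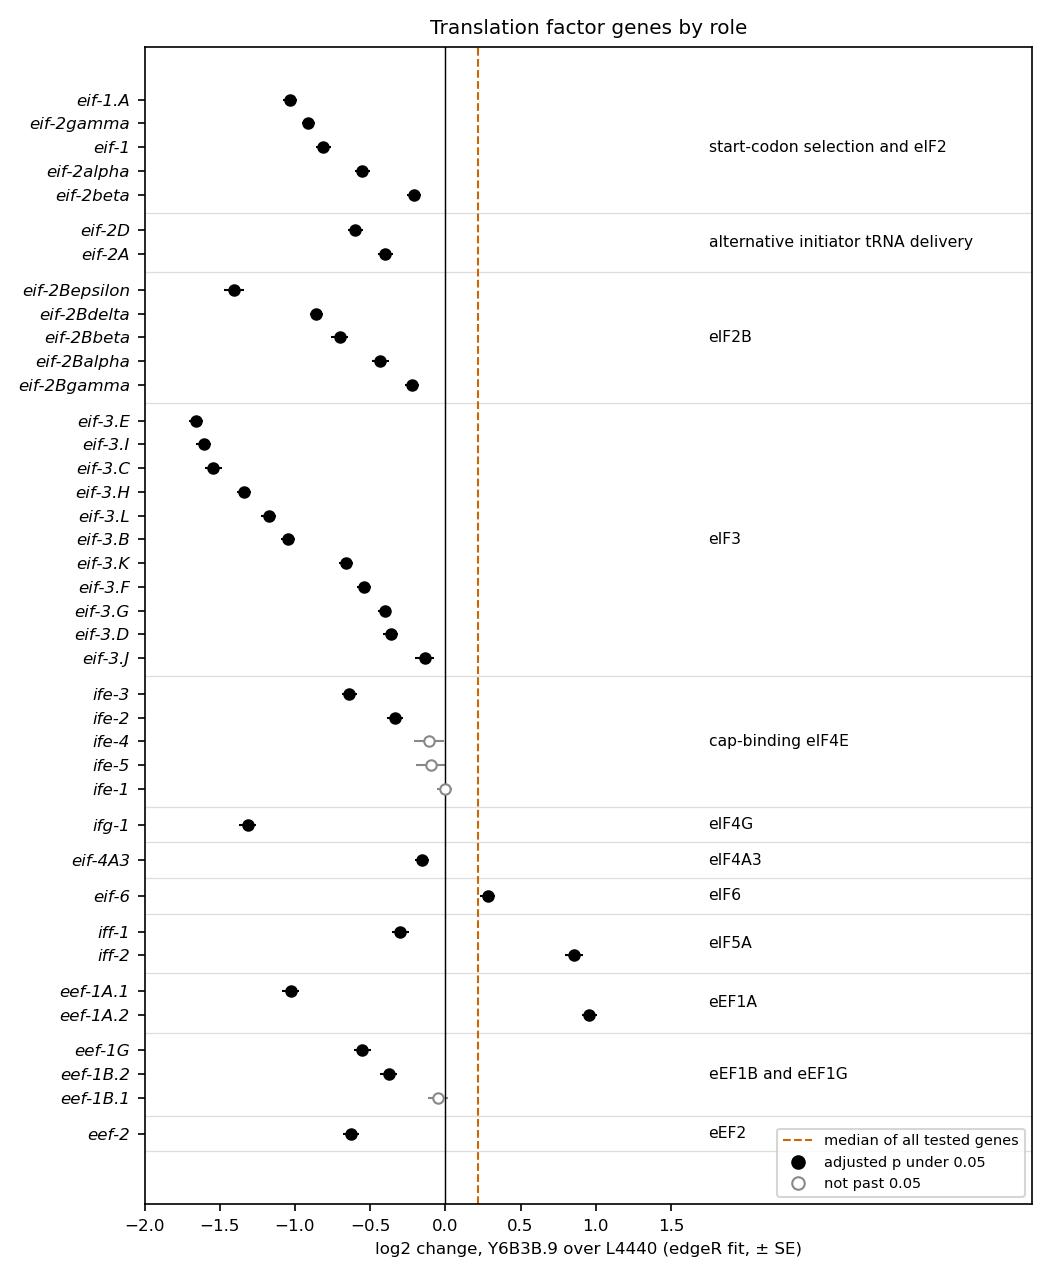
Fitted log2 change of the 39 genes (points, bars are ± SE from the edgeR fit on 3 libraries each), Y6B3B.9 over L4440, ordered by role; open points did not pass an adjusted p of 0.05 and the dashed line is the median of all tested genes. Values run from -1.66 for eif-3.E to 0.96 for eef-1A.2, and iff-2 and eef-1A.2 stand on the other side of 0 from their paralogs iff-1 and eef-1A.1.

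Of the 5 cap-binding eIF4E genes, ife-3 and ife-2 fell and the other three were not called. Their log2 changes ran from -0.64 to -0.0034. ife-3, which codes for the paralog most like mammalian eIF4E, had 252, 262 and 268 CPM in the libraries labelled Y6B3B.9, against 395, 424 and 398 CPM in those labelled L4440. Every library labelled Y6B3B.9 was below every library labelled L4440, and the log2 change was -0.64 (SE 0.050, edgeR adjusted p = 1.98e-08). ife-2, known as the main eIF4E of somatic tissue and for an effect on ageing, had 32.8, 34.2 and 32.4 CPM against 42.4, 42.0 and 41.1 CPM. It also did not overlap between labels (log2 change -0.34, SE 0.054, edgeR adjusted p = 3.87e-05), but with library totals it was at -0.0464 and no longer past the threshold (adjusted p = 0.418). With the length trend removed, ife-3 was at -1.01 and ife-2 at -0.79.

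ife-1, which codes for a cap-binding protein of germ granules needed for sperm, was not called different. It had 253, 257 and 273 CPM in the libraries labelled Y6B3B.9, against 265, 269 and 251 CPM in those labelled L4440. The groups overlapped, and the log2 change was -0.0034 (SE 0.050, edgeR adjusted p = 0.952). This value follows the scaling: it was 0.29 and called higher with library totals (adjusted p = 9.64e-05), and -0.15 and called lower under DESeq2's size factors (adjusted p = 0.0118). With the length trend removed it was -0.42 and called lower. Over all alternatives the adjusted p of ife-1 ran between 2.05e-06 and 0.956. Of 9 sperm markers that passed the filter, 5 were higher and 1 lower, beside 46.4% higher and 37.7% lower of all tested genes. The share of higher sperm markers was thus near that of all tested genes. All 14 markers together had 57.8 to 69.4 CPM under the label Y6B3B.9 and 47.7 to 49.1 CPM under the label L4440. In at least 1 library spe-10, gsp-3 and peel-1 were at 0. The part of the sperm markers in the level of ife-1 was not tested. The annotated exons of ife-1 share 246 bases with dro-1 on the same strand, and how shared reads were counted is not stated.

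The remaining eIF4E genes had few reads. ife-5, close to ife-1 in sequence, had 7.41, 6.87 and 7.51 CPM in the libraries labelled Y6B3B.9, against 8.41, 7.39 and 7.49 CPM in those labelled L4440, from 184 to 247 reads per library (log2 change -0.097, SE 0.10, edgeR adjusted p = 0.382). ife-4, which codes for the divergent eIF4E paralog of neurons and muscle, had 6.51, 6.74 and 6.61 CPM against 7.45, 6.99 and 7.01 CPM (log2 change -0.11, SE 0.099, adjusted p = 0.306). The libraries of ife-4 did not overlap between labels although the difference was not called, whereas those of ife-5 did. Both were called lower with DESeq2's size factors in edgeR. In the DESeq2 Wald test neither was called (adjusted p = 0.0728 for ife-4 and 0.0851 for ife-5). With library totals both were above 0, without a call. With the length trend removed ife-4 was at -0.56 (adjusted p = 0.000102) and ife-5 at -0.36 (adjusted p = 0.00504), both called lower.

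Ratios between paralogs within a library hardly depend on how libraries are scaled, which enters only through a pseudocount of 0.5 CPM. A trend of log2 change with gene length still enters them where paralogs differ in length. The log2 ratio of ife-3 to ife-2 was 2.96 ± 0.0624 under the label Y6B3B.9 and 3.26 ± 0.0583 under the label L4440 (SD, n = 3 each), a difference of -0.30. That of ife-1 to ife-2 was 2.96 ± 0.0844 and 2.63 ± 0.0327, a difference of 0.33, so these germline paralogs moved to opposite sides of ife-2. The log2 ratio of ife-3 to ife-4 differed by -0.53, that of ife-5 to ife-2 by 0.24, that of ife-1 to ife-4 by 0.10 and that of ife-5 to ife-4 by 0.014. The groups overlapped in ife-1 over ife-4 and in ife-5 over ife-4, and not in ife-3 over ife-4 or ife-5 over ife-2. Over 9 paralog pairs, 7 had the exact two-sided permutation p of 0.1, the smallest possible here, and an adjusted p of 0.129, so no pair could pass 0.05 in this design.

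Per length, in TPM (counts divided by gene length and scaled to the same sum in each library), ife-1 and ife-3 made up most of the eIF4E level. ife-1 had 48.4% ± 0.582 of the summed TPM of the family under the label Y6B3B.9 and 38.6% ± 0.664 under the label L4440, and ife-3 had 42.2% ± 0.304 and 52.3% ± 0.893 (SD, n = 3 each). The order of these paralogs was thus ife-1 above ife-3 in all 3 libraries labelled Y6B3B.9 and ife-3 above ife-1 in all 3 labelled L4440. ife-2 held 7.09% ± 0.332 and 7.13% ± 0.186, which differ by less than the spread between libraries. ife-4 and ife-5 held 1.404% and 0.926% under the label Y6B3B.9, and 1.21% and 0.788% under the label L4440. The length of ife-5 implied by the deposited tables is 1408 bases, against 850 bases of exon in the annotation used here, so its level per length is less certain than the others.

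**Figure D3:**
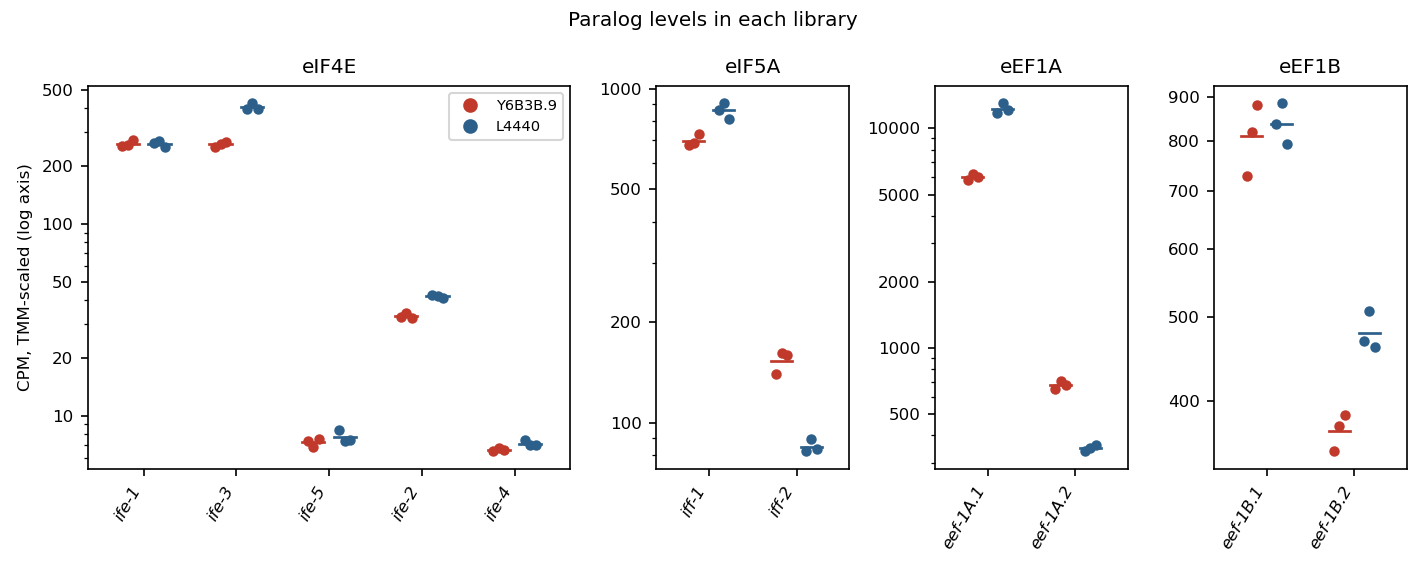
TMM-scaled CPM (log axes, each panel with its own range) of the eIF4E, eIF5A, eEF1A and eEF1B genes in each library, with the mean of each label as a line. ife-1 overlaps between the labels, ife-3 is lower under the label Y6B3B.9, and iff-2 and eef-1A.2 are higher there while iff-1 and eef-1A.1 are lower.

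eIF4G, the scaffold between cap and ribosome, was lower in the libraries labelled Y6B3B.9. ifg-1, its gene, had 334, 307 and 294 CPM in the libraries labelled Y6B3B.9, against 759.6, 767 and 799 CPM in those labelled L4440. All libraries labelled Y6B3B.9 were below all labelled L4440, and the level came to 40.2% of that under the label L4440 (log2 change -1.32, SE 0.056, edgeR adjusted p = 4.60e-11). ifg-1 is the longest of the 39 genes, at 4467 bases, and with the length trend removed its log2 change was -1.03. eif-4A3, an eIF4A paralog known from the exon junction complex of spliced mRNA, had 111, 115 and 106 CPM against 125, 122 and 122 CPM. Its groups did not overlap (log2 change -0.15, SE 0.047, edgeR adjusted p = 0.00729), but with library totals it was at 0.14 and called higher, and with the length trend removed at -0.47.

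All 11 eIF3 subunit genes with an eif-3 symbol fell, beside 37.7% of all tested genes. Their median log2 change was -1.05, and 6 were 2-fold lower or more, beside 10.2% of all tested genes. eIF3 is the large scaffold on the small ribosomal subunit. The steepest fall of any member was in eif-3.E, with 80.1, 82.0 and 80.6 CPM in the libraries labelled Y6B3B.9 against 254, 260.3 and 252 CPM in those labelled L4440 (log2 change -1.66, SE 0.045, edgeR adjusted p = 1.61e-12). eif-3.I had 74.1, 78.2 and 74.3 CPM against 227, 238 and 224 CPM (log2 change -1.61, SE 0.048, adjusted p = 3.33e-12). eif-3.C, which lies in the core of the complex, had 168, 158 and 146 CPM against 469, 451 and 459 CPM (log2 change -1.54, SE 0.056, adjusted p = 1.32e-11). In these 3 subunits the mean level under the label Y6B3B.9 was 31.7% to 34.3% of that under the label L4440, and no libraries overlapped. eif-3.H had 69.4, 69.5 and 67.8 CPM against 178, 175 and 171 CPM (log2 change -1.34, SE 0.045, adjusted p = 6.62e-12).

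The other eIF3 subunits differed by less. The log2 change was -1.18 (SE 0.051) for eif-3.L, -1.05 (SE 0.049) for eif-3.B, -0.66 (SE 0.047) for eif-3.K, -0.54 (SE 0.050) for eif-3.F, -0.40 (SE 0.044) for eif-3.G and -0.36 (SE 0.048) for eif-3.D, all without overlap between labels. eif-3.K and eif-3.L are known in worms as subunits that the animal can live without. eif-3.J, a loosely bound subunit, was near the threshold, with 53.5, 58.4 and 64.1 CPM in the libraries labelled Y6B3B.9 against 64.8, 64.05 and 64.5 CPM in those labelled L4440. Its groups overlapped, and the call (log2 change -0.14, SE 0.061, edgeR adjusted p = 0.0466) was lost without Y6B3B.9 replicate 1 (-0.0820), Y6B3B.9 replicate 2 (-0.14), L4440 replicate 1 (-0.15) or L4440 replicate 3 (-0.15). It was also lost with a filter of at least 1 CPM in 3 libraries (-0.0424). With library totals eif-3.J was at 0.15 and called higher, and eif-3.D was at -0.0732 and not called. With the length trend removed eif-3.J was at -0.57, eif-3.K at -1.12, eif-3.F at -0.86 and eif-3.G at -0.76.

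Per length, the eIF3 genes were spread more widely under the label Y6B3B.9. The SD of log2 TPM over the 11 subunits was 0.489, 0.468 and 0.498 in the libraries labelled Y6B3B.9, against 0.355, 0.375 and 0.352 in those labelled L4440. The lowest subunit was eif-3.E, at 63.2 to 66.5 TPM, in the libraries labelled Y6B3B.9, and eif-3.J, at 90.9 to 94.9 TPM, in those labelled L4440. The highest was eif-3.D under the label Y6B3B.9, at 177 to 198 TPM, and eif-3.I under the label L4440, at 238 to 245 TPM. The summed level of these 11 genes was 1103 ± 40.99 TPM and 1970 ± 13.04 TPM (SD, n = 3 each). It leaves out egl-45, an eIF3 subunit gene under another symbol, and so is not that of the whole complex. Whether subunits differed from each other in their change was not tested.

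**Figure D4:**
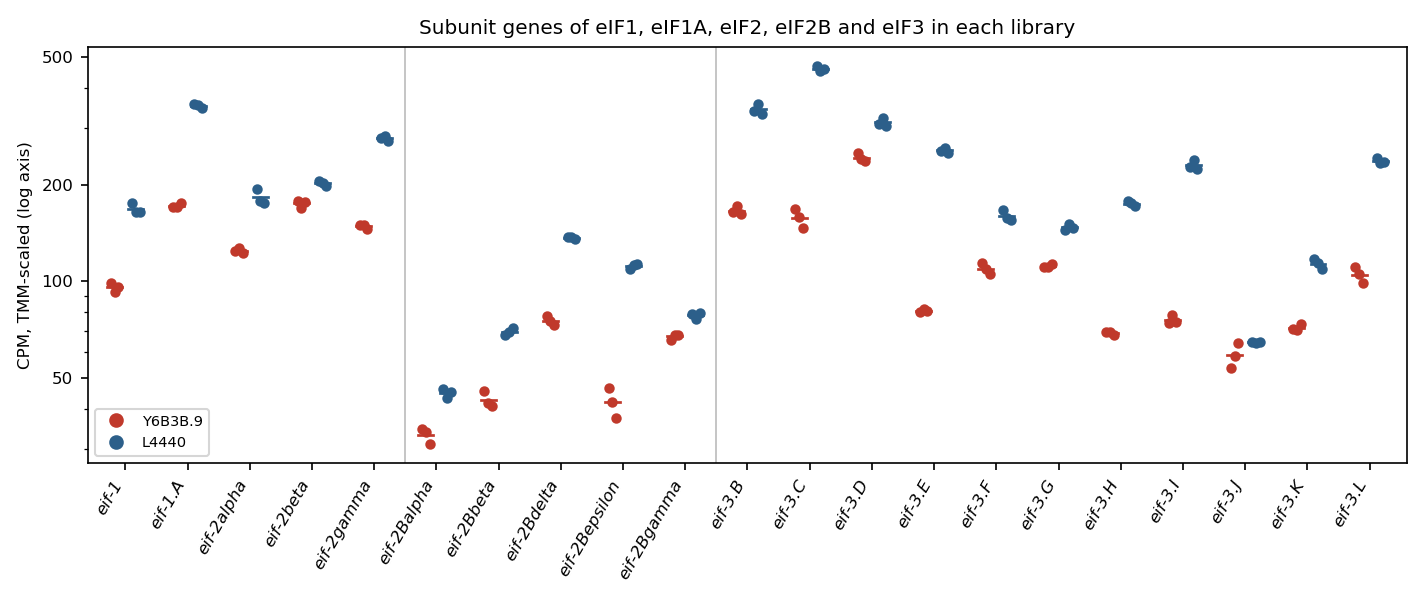
TMM-scaled CPM (log axis) of the genes for eIF1, eIF1A and eIF2 (left), eIF2B (middle) and eIF3 (right) in each library, with the mean of each label as a line. In 20 of the 21 genes the 3 libraries labelled Y6B3B.9 lie below the 3 labelled L4440, beside 38.3% of all tested genes. eif-3.J overlaps.

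The genes for start-codon selection and for eIF2 all fell, 5 of 5, beside 37.7% of all tested genes. eif-1.A and eif-1, whose proteins keep the ribosome scanning until a start codon is met, had log2 changes of -1.03 (SE 0.046) and -0.81 (SE 0.049). The subunits of eIF2 differed: eif-2gamma, which binds the initiator tRNA, was at -0.91 (SE 0.045), eif-2alpha, the subunit phosphorylated under stress, at -0.55 (SE 0.050) and eif-2beta at -0.21. eif-2beta had 178, 169 and 177 CPM in the libraries labelled Y6B3B.9, against 205, 203 and 198 CPM in those labelled L4440 (SE 0.046, edgeR adjusted p = 0.000720). These did not overlap, but with library totals eif-2beta was at 0.0840 and not called, and with the length trend removed at -0.52. Per length, eif-2alpha, eif-2beta and eif-2gamma had 112 ± 4.60, 192 ± 8.26 and 121 ± 5.50 TPM under the label Y6B3B.9 and 156 ± 8.97, 211 ± 3.01 and 216 ± 0.120 TPM under the label L4440 (SD, n = 3 each), so eif-2gamma lay near eif-2beta under the label L4440 and near eif-2alpha under the label Y6B3B.9. The genes for alternative ways of delivering the initiator tRNA fell as well, with log2 changes of -0.60 (SE 0.050) for eif-2D and -0.40 (SE 0.050) for eif-2A, the second of them at -0.11 and not called with library totals.

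All 5 eIF2B genes fell, beside 37.7% of all tested genes. eIF2B exchanges the guanine nucleotide of eIF2. eif-2Bepsilon, the catalytic subunit, had 46.3, 42.1 and 37.5 CPM in the libraries labelled Y6B3B.9, against 109, 112 and 113 CPM in those labelled L4440 (log2 change -1.41, SE 0.064, edgeR adjusted p = 7.43e-11). eif-2Bgamma, its partner in the catalytic part, differed little, with 65.6, 67.9 and 68.0 CPM against 79.2, 76.1 and 79.4 CPM (log2 change -0.22, SE 0.046, adjusted p = 0.000494). Neither gene overlapped between labels, and eif-2Bgamma was at 0.0708 and not called with library totals, and at -0.51 with the length trend removed. The regulatory subunits, which sense phosphorylated eIF2, had log2 changes of -0.86 (SE 0.046) for eif-2Bdelta, -0.70 (SE 0.055) for eif-2Bbeta and -0.43 (SE 0.059) for eif-2Balpha. In TPM eif-2Bepsilon was the lowest of the 5 under the label Y6B3B.9, at 25.6 ± 3.40, and eif-2Bgamma the highest, at 70.7 ± 1.13. Under the label L4440 they were at 64.4 ± 1.67 and 78.2 ± 3.12, and the lowest was eif-2Balpha at 54.01 ± 2.62 TPM.

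eif-6, 1 of the 3 genes that rose, codes for a factor that binds the large ribosomal subunit and keeps it from joining too early. It had 136, 139.6 and 141 CPM in the libraries labelled Y6B3B.9, against 116, 119.4 and 108 CPM in those labelled L4440, with no overlap. The log2 change of 0.28 (SE 0.049, edgeR adjusted p = 9.51e-05) lay just above the median of all tested genes, and it was at -0.12 and called lower with the length trend removed. Its annotated exons share 34 bases with gale-1 on the same strand.

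The paralogs of eIF5A, which helps ribosomes through difficult peptide bonds and carries the hypusine modification, moved apart. iff-2, known from the soma, rose, with 139.9, 161 and 159 CPM in the libraries labelled Y6B3B.9 against 82.0, 89.2 and 83.2 CPM in those labelled L4440 (log2 change 0.86, SE 0.059, edgeR adjusted p = 5.03e-09). iff-1, known from the germline, fell, with 678, 688 and 729.9 CPM against 863, 903 and 813 CPM (log2 change -0.30, SE 0.055, adjusted p = 0.000160). Neither gene overlapped between labels. The fall of iff-1 rests on the scaling, since with library totals it was at -0.0080 and not called (adjusted p = 0.891, the highest of its alternatives, whose lowest was 9.30e-15), whereas iff-2 kept its call under all 14 alternatives. With the length trend removed iff-2 was at 0.45 and iff-1 at -0.81, both called. The log2 ratio of iff-1 to iff-2 was 2.19 ± 0.0912 under the label Y6B3B.9 and 3.33 ± 0.0535 under the label L4440 (SD, n = 3 each), a difference of -1.15. Per length, iff-2 made up 13.9% ± 0.761 of the eIF5A level under the label Y6B3B.9 and 6.78% ± 0.234 under the label L4440. The summed eIF5A level was 1562 ± 18.6 TPM and 1685 ± 56.2 TPM, which gave a ratio nearer to 1 than that of either paralog.

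The eEF1A genes also moved in opposite directions. eef-1A.1, by far the most abundant member, had 5837, 6215 and 6004 CPM in the libraries labelled Y6B3B.9, against 11743, 12996 and 12096 CPM in those labelled L4440 (log2 change -1.03, SE 0.059, edgeR adjusted p = 6.38e-10). eef-1A.2 had 654, 706 and 679.9 CPM against 338, 349.6 and 363 CPM (log2 change 0.96, SE 0.052, adjusted p = 3.88e-10). The libraries did not overlap in either gene, and both kept direction and call under all 14 alternatives. Of the reads of both genes, eef-1A.2 took 10.1%, 10.2% and 10.2% under the label Y6B3B.9 and 2.80%, 2.62% and 2.91% under the label L4440. The log2 ratio of eef-1A.1 to eef-1A.2 was 3.15 ± 0.0109 and 5.13 ± 0.0788 (SD, n = 3 each), and its difference of -1.98 was the largest in size of the 9 paralog pairs. Their coding sequences are close copies, so reads could be shared between them or left out, and each level is uncertain to that extent. Together they summed to 6698 ± 215 CPM and 12628 ± 649 CPM.

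**Figure D5:**
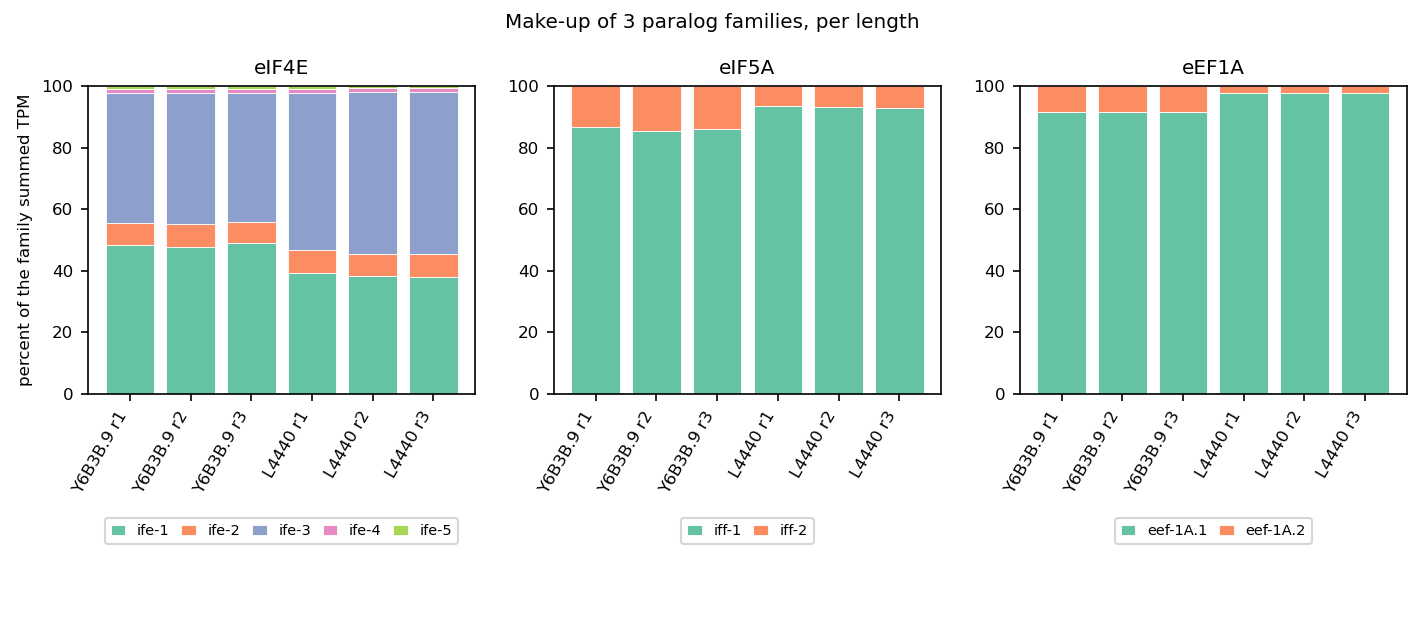
Share of each paralog in the summed TPM of its family (bars stacked to 100%) for eIF4E, eIF5A and eEF1A in the 3 libraries labelled Y6B3B.9 and the 3 labelled L4440 (r1 to r3 are replicates). ife-1 takes the larger part of eIF4E under the label Y6B3B.9 and ife-3 under the label L4440, and iff-2 and eef-1A.2 take larger shares under the label Y6B3B.9.

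The remaining elongation factors fell or were not called. eef-2, the translocase, had 3208, 3466 and 3305 CPM in the libraries labelled Y6B3B.9, against 5173, 5122 and 5100 CPM in those labelled L4440 (log2 change -0.63, SE 0.054, edgeR adjusted p = 5.23e-08). eef-1G, a structural subunit of the exchange complex, had 1673, 1802 and 1833 CPM against 2499, 2730 and 2555 CPM (log2 change -0.55, SE 0.058, adjusted p = 4.77e-07). Both were lower in every library labelled Y6B3B.9. eef-1B.2, an exchange subunit, had 349.5, 374 and 385 CPM against 469, 508 and 462 CPM (log2 change -0.38, SE 0.055, adjusted p = 1.79e-05), without overlap, but was at -0.0858 and not called with library totals. The other exchange subunit, eef-1B.1, overlapped between the labels, with 729, 819 and 882 CPM against 837, 885 and 794 CPM (log2 change -0.049, SE 0.068, adjusted p = 0.502). Over its alternatives the adjusted p of eef-1B.1 lay between 7.05e-06 and 0.810. It was called lower at -0.20 with DESeq2's size factors and higher at 0.24 with library totals, and its lowest value was -0.50, called lower, with the length trend removed. The log2 ratio of eef-1B.1 to eef-1B.2 was 1.13 ± 0.0667 under the label Y6B3B.9 and 0.80 ± 0.0283 under the label L4440. eef-1B.1 has 840 bases and eef-1B.2 has 2071, and this ratio does not take the length trend into account. With that trend removed eef-1B.2 was at -0.40, above eef-1B.1 at -0.50, so the order of their changes turned.

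In level per length the same 5 genes, 4 for elongation factors and iff-1, were the highest in both groups. Under the label Y6B3B.9 the order was eef-1A.1 at 5399 ± 180.1 TPM, eef-1G at 1676 ± 40.9996, eef-2 at 1639 ± 66.6, iff-1 at 1344 ± 17.9 and eef-1B.1 at 1338 ± 88.9. Neither eef-1G and eef-2 nor iff-1 and eef-1B.1 differed beyond their spread there. Under the label L4440 it was eef-1A.1 at 10458 ± 437 TPM, eef-2 at 2402 ± 41.3, eef-1G at 2335 ± 82.7, iff-1 at 1570 ± 54.5 and eef-1B.1 at 1316 ± 47.9 (SD, n = 3 each), and eef-2 and eef-1G again did not differ beyond their spread. The lowest were ife-5 and ife-4, at 7.17 ± 0.364 and 10.9 ± 0.300 TPM under the label Y6B3B.9 and 7.28 ± 0.549 and 11.2 ± 0.452 TPM under the label L4440.

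Position and length were looked at as properties that the choice of genes did not use. In build WBcel235, 12 of the genes lie on chromosome I, 12 on II, 6 on III, 2 on IV, 4 on V and 3 on X. eef-1A.2 (X, 7823654 to 7825769, plus strand) is 1 of the 3 on X, where the median log2 change of 2037 tested genes was 0.61, while eef-1A.1 (III, 6970026 to 6971712, minus strand) and iff-1 (III, 9745862 to 9747193, minus strand) are on chromosome III, with a median of -0.11 over 2273 genes. iff-2 (II, 8559375 to 8561367, minus strand) lies on chromosome II, with a median of 0.0775 over 2461 genes. The other members on X, ife-2 (381385 to 382709, minus strand) and ife-4 (1104212 to 1106251, plus strand), had log2 changes below 0. Across the 39 genes, log2 change and length had a Spearman correlation of -0.45 and a Pearson correlation with log2 length of -0.40, beside -0.30 and -0.26 across all tested genes. Genes are not independent replicates, so these values are descriptions. The median length was 1320 bases for the 39 genes and 1302 bases for all tested genes.

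Translation factors and related genes under other symbols were mostly lower too. Not all genes on this list code for translation factors, eftu-2 being one that does not. Of its 18 genes tested, 16 fell and 2 rose, beside 37.7% lower and 46.4% higher of all tested genes. The median log2 change of the list was -0.64. The lower ones with the smallest p were clu-1, a homologue of the clustered mitochondria gene (-1.78, SE 0.058), inf-1, the eIF4A helicase (-1.35, SE 0.048), iffb-1, which codes for eIF5B (-1.45, SE 0.056), and egl-45, the largest subunit of eIF3 (-1.30, SE 0.054). pab-2, a poly(A)-binding protein gene, rose by log2 0.79 (SE 0.054), and dohh-1, whose enzyme completes the hypusine of eIF5A, by 0.20 (SE 0.047). The second of these lay below the median of all tested genes. Of 8 release and mitochondrial factors tested, 7 fell and mrrf-1 was not called. They included tufm-1 (-1.48, SE 0.048), a mitochondrial EF-Tu gene, tufm-2 (-1.02, SE 0.049), the release factor gene erfa-3 (-0.99, SE 0.053) and mtrf-1L (-0.57, SE 0.052).

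Genes that control translation or bind eIF4E were 18 lower and 3 higher of 21, with a median of -0.92. Of all tested genes, 37.7% were lower and 46.4% higher. ifet-1, which codes for an eIF4E-binding repressor of the germline, averaged 304 CPM under the label Y6B3B.9 and 1259 CPM under the label L4440 (log2 change -2.05, SE 0.061, edgeR adjusted p = 3.26e-12). larp-1 (-1.90, SE 0.057), car-1 (-1.79, SE 0.054) and gtbp-1 (-1.72, SE 0.054), all RNA-binding protein genes, fell as well. The 3 that rose were atf-4 (1.08, SE 0.063), a transcription factor gene of the integrated stress response, mxt-1 (0.56, SE 0.11), whose protein binds eIF4E and eIF3, and ain-1 (0.17, SE 0.051), a partner of microRNA Argonautes. The value of ain-1 lay below the median of all tested genes. gld-1 and car-1 are also known from the germline, and gld-1 is on the germline marker list as well.

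Aminoacyl-tRNA synthetase genes, which charge tRNAs, were mostly lower and ribosomal protein genes mostly higher. Of 31 synthetase genes, 30 fell and 1 was not called, with a median of -0.66. Of 77 ribosomal protein genes tested, 50 rose and 12 fell. Beside these counts, 46.4% of all tested genes were higher and 37.7% lower. The ribosomal protein median of 0.22 matched that of all tested genes, and 37 of the 77 genes lay below the latter. With the length trend removed, 5048 of all 14265 tested genes were higher and 6445 lower. The ribosomal protein genes were then 6 higher and 54 lower. No test was made of the difference between these sets and the translation factors.

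Markers of somatic tissue were set beside the share of all tested genes that were higher, 46.4%, and lower, 37.7%. Hypodermis and cuticle markers were higher in 15 of 15, with a sum of 154 to 166 CPM under the label Y6B3B.9 and 58.2 to 65.6 CPM under the label L4440. Intestine markers were higher in 12 and lower in 2 of 15, with a sum of 53188 to 55728 CPM and 38356 to 40038 CPM. Most of that sum came from vit-6, with means of 30975 and 23020 CPM, and vit-2, with 17123 and 12382 CPM. Muscle markers were 8 higher and 3 lower of 15, at 1912 to 2103 CPM and 1291 to 1558 CPM, and neuron markers 9 higher and 2 lower of 15, at 505 to 541 CPM and 393 to 418 CPM. The share of higher muscle markers was near that of all tested genes. No marker on these lists was at 0, and their part in the rise of iff-2 and eef-1A.2 was not tested.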

How the data were processed

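RNA from whole N2 hermaphrodites was sequenced in 6 libraries, grouped by the perturbation label; replicates were numbered in the order of the records. Illumina's TruSeq RNA kit v2, per the labels' protocols, was used for library construction and does not mark strand. Tools named in the submitters' processing notes are STAR 2.4.1d, bcl2fastq 1.8.4 and featureCounts 1.4.6-p4, with build WBcel235; counting options are not stated. The deposited counts are raw reads for each of 46748 features, 43693 of which were matched to a symbol. The authors' deposited RPKM values had been divided by the 6 library totals repeated down the rows. Taking totals that way, all 4330 of 4330 genes with at least 1000 reads in every library had the same implied length in each (tolerance 0.1%), against 0 with each library's own total. RPKM therefore served only to derive gene lengths, from which TPM was computed.

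The test was edgeR 4.0.16 under R 4.3.3 (filterByExpr, TMM, glmQLFit and glmQLFTest with robust=TRUE, Benjamini-Hochberg over 14265 genes, threshold 0.05). SEs came from the F statistic. Libraries of a group differed by more than sampling noise (chi-square per degree of freedom 3.79 to 14.0), so none was a copy. On simulated counts (14188 genes tested) the test called 55 of 67 genes with a 1.5-fold change, 66 of 67 with a 2-fold change and 66 of 66 with a 4-fold change. Unchanged genes made up 14 of its 201 calls. Few genes were changed in that simulation, in random directions, whereas 84.1% of tested genes were called in the data. It therefore does not cover error from scaling. Alternatives were scaling by library totals or DESeq2's size factors, 2 other filters, robust=FALSE, the DESeq2 1.42.0 Wald test, limma-voom (limma 3.58.1), leaving out each library, and removing a loess trend of log2 change on log2 gene length.

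The members, lists and alternatives were chosen with earlier results of these data known, so lists are described by counts and medians. Values in every library are given for Y6B3B.9, all ife, iff, ifg and eef genes and the 5 highest and 5 lowest eif genes by log2 change; from other translation lists, up to 4 genes per direction with the smallest p are named. rme-2 is the first germline marker listed. gld-1, mrrf-1, vit-2, vit-6 and the sperm markers at 0 were named after their values were seen. Listed symbols without a match were 2 of 20, 5 of 13 and 1 of 22; the first are older names of eif-2beta and eif-2Bgamma. Positions are from an annotation of build WBcel235 (Ensembl). By it, members other than ife-1 and eif-6 also share exon bases with genes that had reads. Among them are ifg-1 with dab-1 (11 bases, same strand) and eif-2Bdelta with C50F4.8 (131 bases, opposite strand). Sequences are not used here. Counting intervals were not needed beside replicate SDs, and reads carry no molecular identifiers. Figures were drawn with matplotlib 3.10.9.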

Additional observations from a re-analysis of the deposited data

How the results depend on the processing

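Of the 35 called genes, 25 kept direction and call under all 14 alternatives. The number of higher genes was 7 with library totals, against 3. The median log2 change of the family (-0.55) was -0.70 with DESeq2's size factors and -0.70 in the DESeq2 Wald test, -0.26 with library totals, -0.65 without the filter, -0.46 with at least 1 CPM in 3 libraries and -0.79 with the length trend removed. Leaving out single libraries gave -0.58 to -0.53, 31 to 32 lower genes and 3 higher. With library totals, the sign turned for ife-1 (0.29), eef-1B.1 (0.24), ife-5 (0.19), ife-4 (0.18), eif-3.J (0.15), eif-4A3 (0.14), eif-2beta (0.0840) and eif-2Bgamma (0.0708). eif-6 turned to -0.12 with the length trend removed. With at least 1 CPM in 3 libraries ife-1 was at 0.0928 and eef-1B.1 at 0.0476, neither called. Leaving out a library, ife-1 ran from -0.0435 to 0.0108 and eef-1B.1 from -0.12 to 0.0144, and neither was called. The log2 ratio of ife-5 to ife-4 differed by -0.0112 to 0.0637 when libraries were left out, an alternative chosen after seeing the data. Translation factors and related genes under other symbols were 2 higher, but 1 with DESeq2's size factors, 1 without the filter and 1 in the Wald test. They were 1 higher with the length trend removed and 4 with library totals. Release and mitochondrial factors were 0 higher, but 1 with library totals and 1 with at least 1 CPM in 3 libraries. The causes were not tested. Counts of 168 to 247 reads limit ife-4 and ife-5. No paired analysis was possible because replicate numbers were given in the order of the records.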
